A study of Mus musculus with 6 samples.

Results

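Neuritin, the neurotrophins and the receptors that bind or sort them are described here as 8 genes, Nrn1, Bdnf, Ntf3, Ntrk2, Ntrk3, Ngfr, Sort1 and Sorcs2, out of 20040 gene entries in a table of cultured mouse cortical neurons. The genes were picked by name, with the difference between KDM6B knockout and wild-type neurons already known, so the values that chose them are given as a description with no test. All 8 were above the low-value limit of a mean of 0.5 TPM. TPM is a share of transcripts scaled by gene length that sums to 1000000 in each library.

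The study compared mRNA from KDM6B knockout neurons (KO, 3 libraries) with mRNA from wild-type neurons (WT, 3 libraries). KDM6B is an enzyme that takes methyl groups off lysine 27 of histone H3, a mark of silenced genes. Both groups were on the C57BL/6 background and were grown from embryonic day 18 cortex, dissociated with papain, plated in serum-containing DMEM and then kept in Neurobasal A with N21-MAX, GlutaMax and antibiotics. How the gene was disrupted, whether it was lost in all cells, the days in culture, the number of embryos per sample and whether each replicate was its own culture are not stated in the labels. The p-values therefore measure only library-to-library spread, part or all of it possibly technical.

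Neurotrophins are small secreted proteins, made as longer precursors, that support the survival, growth and synapses of neurons. Mature BDNF acts mainly through the receptor tyrosine kinase TrkB and NT-3 mainly through TrkC, while the precursors bind the p75 receptor together with proteins of the sortilin family. Sortilins also carry neurotrophins and Trk receptors between compartments of the cell, and neuritin is a membrane-anchored protein, known as a gene induced by activity and by BDNF, that promotes neurite growth.

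The targeted gene Kdm6b was lower in the KO libraries, at 11.2, 11.1 and 12.0 TPM, against 30.9, 30.3 and 30.7 TPM in the WT libraries. The whole counts recovered from the TPM values added up to between 19781626 and 23527356 per library, as lower bounds. At a limma p below 0.05 after Benjamini-Hochberg adjustment, 10.9% of the 14983 tested genes were called: 622 (4.15%) had higher and 1010 (6.74%) had lower levels in KO. Of those calls 38.1% were higher in KO, a share that became 53.1% after median centring of the libraries and 49.2% after quantile normalization. The sum of 4 Y-linked genes was 0.149 to 0.754 TPM in KO libraries and 91.0 to 93.9 TPM in WT libraries, so the sex mix of the embryos and the genotype cannot be told apart in any comparison below.

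The 8 genes covered a wide range of levels. Ntrk2 and Sort1 were the highest and Ngfr the lowest in all 6 libraries, with Ntf3 and Bdnf just above Ngfr. The order in the middle differed between the groups: Nrn1 came after Sorcs2 and Ntrk3 in each KO library and before both in each WT library. Within KO, Sorcs2 and Ntrk3 had ranges that overlapped, with Sorcs2 ahead in KO replicates 1 and 2 and Ntrk3 ahead in KO replicate 3. In the 3 WT libraries each gene was above the next one without overlap. These levels are per length, and each sums all isoforms and start sites of its gene, so full-length and truncated Ntrk2 are counted together. Because the samples are bulk RNA, fewer cells of a type and less RNA per cell cannot be told apart.

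**Figure D1:**
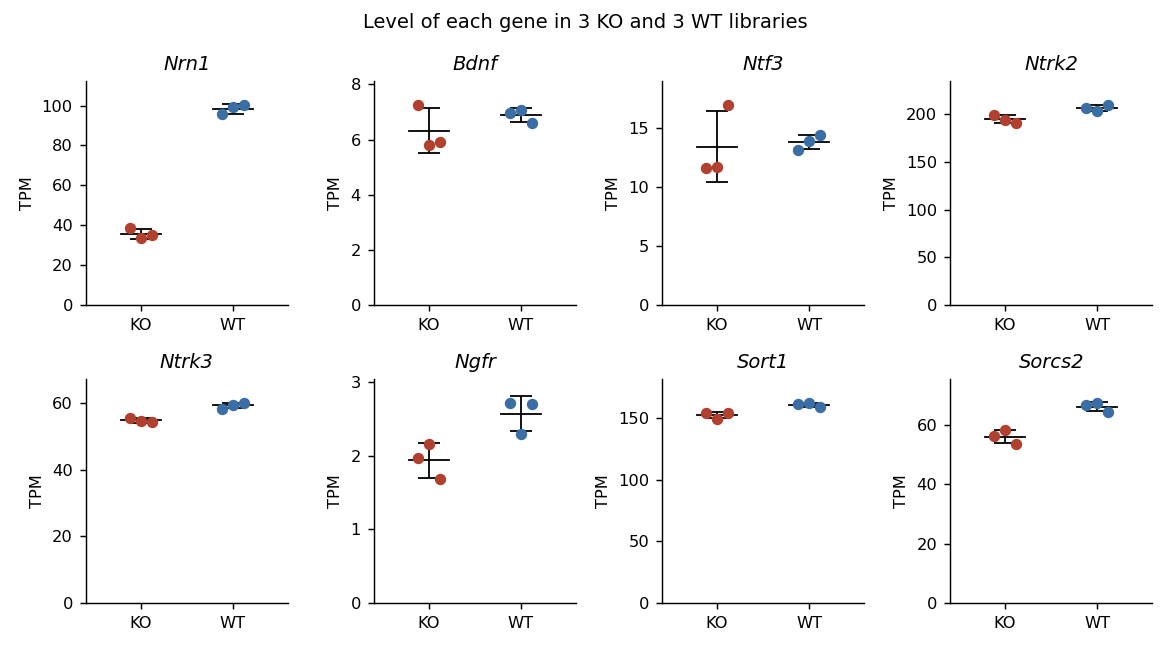
Level in TPM (y axis, from 0, one scale per gene) of the 8 genes in 3 KO (red, left) and 3 WT (blue, right) libraries; points are libraries, the long line is the mean and the bars are 1 SD. Nrn1 sits at 33.7 to 38.6 TPM in KO and 95.5 to 100.2 TPM in WT, while Bdnf and Ntf3 overlap between the groups.

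Among the ligands, neuritin had by far the widest gap. Nrn1 (chromosome 13, 36725361 to 36735131, minus strand, GRCm38) had 38.6, 33.7 and 35.0 TPM in the KO libraries, against 95.5, 99.1 and 100.2 TPM in the WT libraries. Each KO library was far below each WT library, and the mean of 35.7 ± 2.55 TPM in KO was 36.4% of the mean of 98.3 ± 2.46 TPM in WT (SD, n = 3 each). The fitted log2 fold change, KO over WT on log2 of TPM plus 0.5, was -1.45 ± 0.05 (SE), and it stayed between -1.50 and -1.41 over 17 alternative settings. The values rest on 375 to 449 counts per KO library and 1105 to 1220 per WT library. Relative to Sort1 in the same library, Nrn1 was at 0.250, 0.226 and 0.227 in KO and at 0.593, 0.610 and 0.630 in WT.

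Nrn1 lies on the strand opposite to Fars2, which encodes a mitochondrial tRNA synthetase, and no source used here states whether counting used strand. Fars2 had 17.5, 18.1 and 17.5 TPM in KO and 16.4, 16.8 and 15.0 TPM in WT (limma adjusted p = 0.172). Its KO libraries were all slightly above its WT libraries, the other way from Nrn1. How reads in the shared stretch were assigned was not tested.

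BDNF, the best studied ligand of TrkB, showed no such gap. Bdnf (chromosome 2, 109674700 to 109727007, plus strand) had 7.25, 5.80 and 5.92 TPM in the KO libraries, against 6.98, 7.07 and 6.61 TPM in the WT libraries. KO replicate 1 was the highest of all 6 and the other two KO libraries were the lowest, so the groups overlapped. The KO mean of 6.32 ± 0.802 TPM was 91.9% of the WT mean of 6.89 ± 0.243 TPM (SD, n = 3 each), a log2 fold change of -0.12 ± 0.10 (SE). Its KO libraries were spread more widely than its WT libraries. The 95% counting interval of KO replicate 1, 6.51 to 8.05 TPM, lay just above that of KO replicate 2, 5.17 to 6.49 TPM. It overlapped that of KO replicate 3, 5.23 to 6.69 TPM. These intervals cover counting error only.

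Bdnf is known for a series of alternative first exons, each with its own promoter, some of which answer to calcium and cAMP through the factor CREB, and the deposited value adds them up. In the RefSeq promoter windows (GRCm38.p6) that begin 250 bases before an annotated start, Bdnf had 7 windows, Ntf3 had 2, and Ntrk2 and Ngfr had 1 each, while the other 4 genes were not in that table. The full cAMP response element TGACGTCA was searched on both strands and is in none of these 11 windows, against 1.55% of all 32851 windows. Its shorter core TGACG, which lies inside the full letters, is in 1 of them, against 17.8% of all windows. That Bdnf window is printed below because it was the one with a match, with the core (read on the opposite strand as CGTCA) in capitals.
Bdnf, window 3, chr2:109692186-109692435, plus strand: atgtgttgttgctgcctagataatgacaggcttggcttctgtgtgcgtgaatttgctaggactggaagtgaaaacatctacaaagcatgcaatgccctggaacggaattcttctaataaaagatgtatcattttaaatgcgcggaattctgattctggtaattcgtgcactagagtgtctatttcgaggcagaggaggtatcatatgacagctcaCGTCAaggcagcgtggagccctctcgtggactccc
The core stands 35 bases before the annotated start. The E-box letters CANNTG, the site type of factors such as USF and TCF4, are in 10 of the 11 windows and in 66.2% of all windows. The GC box GGGCGG, the site type of SP1, is in 5 of the 11, 2 of them of Bdnf, and in 32.7% of all. A match describes letters in the window and is not a measured binding site. Only the letters given were searched, so variants of a site that differ from them by a base were not counted.

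NT-3 is the main ligand of TrkC, and its gene varied among the KO libraries. Ntf3 (chromosome 6, 126101412 to 126166910, minus strand) had 11.6, 11.7 and 16.9 TPM in the KO libraries, against 13.1, 13.8 and 14.4 TPM in the WT libraries. KO replicate 3 was above every WT library and the other two KO libraries were below every one, so the groups overlapped. The KO mean of 13.4 ± 3.03 TPM was 97.2% of the WT mean of 13.8 ± 0.623 TPM (SD, n = 3 each). The log2 fold change of -0.06 ± 0.14 (SE) became -0.23 without KO replicate 3, 0.03 without KO replicate 1 and 0.03 without KO replicate 2. KO replicate 3 differs from the other KO libraries by more than counting error, with a 95% counting interval of 14.5 to 19.6 TPM. That of KO replicate 1 is 9.70 to 13.8 TPM and that of KO replicate 2 is 9.85 to 13.8 TPM. The interval of KO replicate 3 overlaps those of WT replicates 1, 2 and 3, which are 11.1 to 15.5, 11.7 to 16.25 and 12.3 to 16.7 TPM. The ratio of Ntf3 to Bdnf was 1.603, 2.01 and 2.85 in the KO libraries and 1.88, 1.96 and 2.175 in the WT libraries, also overlapping.

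The receptor genes differed by little. Ntrk2 (chromosome 13, 58806569 to 59133970, plus strand), which encodes TrkB, had 199, 194 and 191 TPM in KO, against 207, 204 and 209.6 TPM in WT. Each KO library was below each WT library, by a small margin: the KO mean of 195 ± 3.86 TPM was 94.2% of the WT mean of 207 ± 2.94 TPM (SD, n = 3 each). Ntrk3 (chromosome 7, 78175959 to 78738012, minus strand), which encodes TrkC, had 55.7, 54.7 and 54.3 TPM in KO, against 58.5, 59.5 and 60.2 TPM in WT. Its groups did not overlap either, with a KO mean of 54.9 ± 0.755 TPM that was 92.5% of the WT mean of 59.4 ± 0.874 TPM (SD, n = 3 each). The 95% counting intervals of the nearest libraries overlap for both genes. For Ntrk2 they reach up to 201.7 TPM in KO replicate 1 and down to 200.9 TPM in WT replicate 2. For Ntrk3 they reach up to 58.2 TPM in KO replicate 1 and down to 56.0 TPM in WT replicate 1. The log2 fold changes were -0.09 ± 0.03 for Ntrk2 and -0.11 ± 0.03 for Ntrk3 (SE), and after median centring -0.06 and -0.09. The 2 receptors kept nearly the same proportion: Ntrk2 was 3.57, 3.55 and 3.53 times Ntrk3 in the KO libraries and 3.54, 3.43 and 3.48 times in the WT libraries.

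Ngfr encodes the p75 receptor, which binds all neurotrophins and their precursors. It was the scarcest of the 8 (chromosome 11, 95568818 to 95587735, minus strand), with 1.97, 2.15 and 1.69 TPM in KO against 2.72, 2.29 and 2.70 TPM in WT. The highest KO library was just below the lowest WT library, and the values rest on only 38 to 58 counts per KO library and 54 to 69 per WT library. The 95% counting intervals of those neighbours, 1.64 to 2.78 TPM in KO replicate 2 and 1.72 to 2.99 TPM in WT replicate 2, overlap almost wholly. The KO mean of 1.94 ± 0.234 TPM was 75.3% of the WT mean of 2.57 ± 0.239 TPM (SD, n = 3 each), and the log2 fold change was -0.34 ± 0.14 (SE). Markers of basal forebrain cholinergic neurons, a cell type known for p75, summed to 0.476 to 0.656 TPM in KO and 1.67 to 2.36 TPM in WT, with none of 6 above the low-value limit. Markers of meningeal fibroblasts summed to 46.3 to 59.4 TPM in KO and 36.2 to 37.7 TPM in WT. Their part in the Ngfr values was not tested.

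The sorting receptors were lower in KO to unequal degrees. Sort1 (chromosome 3, 108284082 to 108361511, plus strand) encodes sortilin, which pairs with p75 in binding neurotrophin precursors and takes BDNF to the secretory granules. It had 154, 149 and 154 TPM in KO, against 161, 162 and 159 TPM in WT, so that every KO library was below every WT library. The 95% counting intervals of the nearest libraries overlap, reaching up to 157.8 TPM in KO replicate 1 and down to 155.6 TPM in WT replicate 3. The KO mean of 153 ± 2.76 TPM was 94.8% of the WT mean of 161 ± 1.71 TPM (SD, n = 3 each), with a log2 fold change of -0.08 ± 0.02 (SE), or -0.05 after median centring. Sorcs2 (chromosome 5, 36017180 to 36398139, minus strand) encodes a relative of sortilin that forms complexes with p75 and TrkB. It had 56.3, 58.4 and 53.7 TPM in KO, against 66.7, 67.5 and 64.4 TPM in WT. The gap between the groups was larger than the spread within either: the KO mean of 56.1 ± 2.33 TPM was 84.8% of the WT mean of 66.2 ± 1.61 TPM (SD, n = 3 each), with a log2 fold change of -0.24 ± 0.04 (SE) and a range of -0.27 to -0.21 over the alternatives. Sort1 was accordingly 2.74, 2.56 and 2.86 times Sorcs2 in KO and 2.42, 2.40 and 2.47 times in WT.

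Across the 8 genes, every fitted log2 fold change was below 0, though that of Ntf3 turned positive without KO replicate 1 or 2, and their median was -0.12, beside -0.02 over all tested genes. In 6 of them the KO libraries were all below the WT libraries, where 19.2% of all tested genes had that arrangement, and 31.7% had groups apart in either direction. Nrn1 and Sorcs2 were among the genes called lower in the fit over all genes, 2 of 8, where 6.74% of all tested genes were. As the genes were chosen with this contrast known, nothing is read from these shares.

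**Figure D2:**
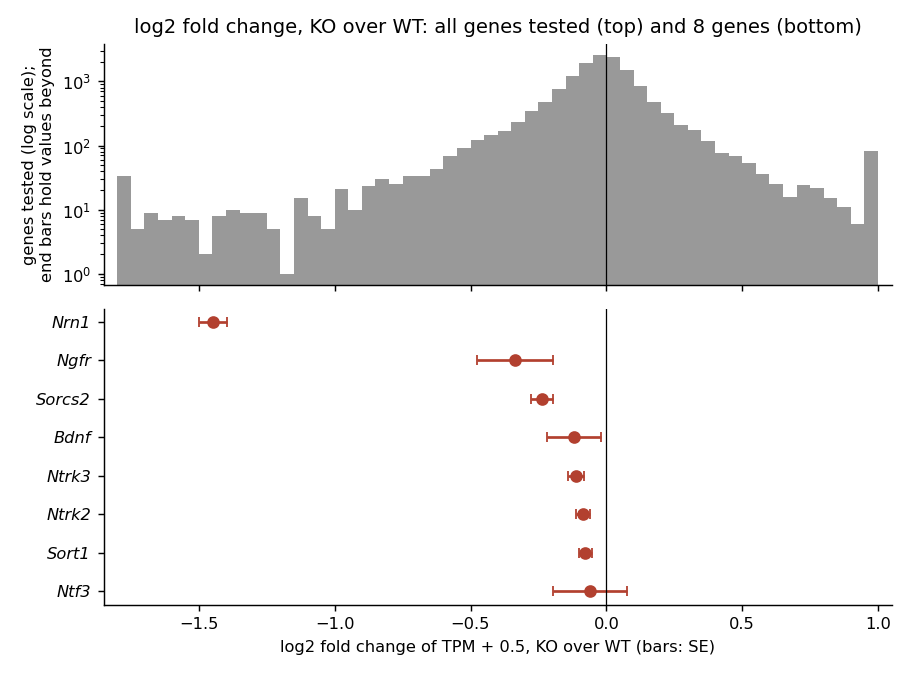
Log2 fold change of TPM plus 0.5, KO over WT (x axis), for all 14983 tested genes (top, number of genes on a log axis, with values beyond the axis gathered in the end bars) and for the 8 genes (bottom, points with SE bars). Nrn1 at -1.45 lies far out in the left tail, and the other 7 genes lie between -0.34 and -0.06.

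The other members of the same ligand and receptor families give the setting. Of 7 such genes 6 were tested, and 1 rose, 1 fell and 4 did not pass (33.3% called, beside 10.9% of all tested genes). Their median log2 fold change was -0.07. These genes and the lists below were chosen with earlier results of these data known, so nothing is read from their shares of calls. Sorcs3, another sortilin relative of neurons, had 32.4, 31.9 and 31.3 TPM in KO against 25.2, 25.1 and 24.7 TPM in WT. It rose 1.27-fold, with the groups well apart (log2 fold change 0.34 ± 0.04 SE, limma adjusted p = 0.0015), the opposite direction to Sorcs2. The ratio of Sorcs2 to Sorcs3 was 1.73, 1.83 and 1.72 in KO libraries and 2.64, 2.69 and 2.61 in WT libraries. Sorcs1, the third of that branch, fell to 81.5% of WT, with 13.9, 12.2 and 12.5 TPM in KO and 16.05, 15.0 and 16.4 TPM in WT (limma adjusted p = 0.0328). That call was lost without any single library other than KO replicate 1 (adjusted p up to 0.112). Sorl1, a sorting receptor that also guides TrkB, had 47.5, 44.9 and 45.0 TPM in KO and 49.9, 49.2 and 48.8 TPM in WT (adjusted p = 0.096).

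**Figure D3:**
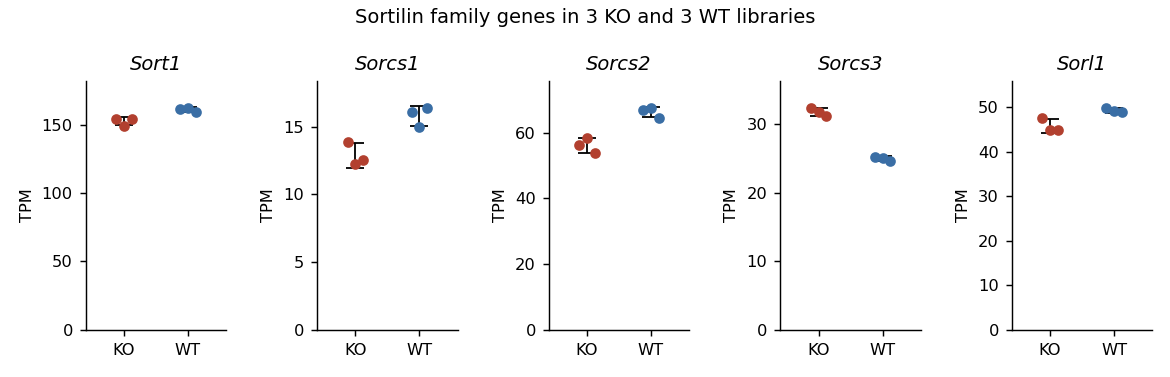
Level in TPM (y axis, from 0, one scale per gene) of 5 genes of the sortilin family in 3 KO (red, left) and 3 WT (blue, right) libraries; points are libraries and bars are the mean ± 1 SD. Sorcs3 is higher in KO, at 31.3 to 32.4 TPM against 24.7 to 25.2 TPM in WT, while the other 4 are lower in every KO library than in any WT library.

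Nrn1l, the relative of neuritin, was near the low-value limit at 0.460, 0.835 and 0.250 TPM in KO and 0.463, 0.955 and 0.220 TPM in WT (limma adjusted p = 0.978), overlapping and far below Nrn1. Ntf5, the gene of the other TrkB ligand NT-4, was at most 0.462 TPM in any library and was not tested.

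Of 15 tested genes that process and release neurotrophins, 2 rose, 1 fell and 12 did not pass (20.0% called, beside 10.9% of all tested genes), with a median log2 fold change of -0.04. Serpini1, which encodes neuroserpin, an inhibitor of the plasminogen activator that helps cleave proBDNF, had 204, 209 and 199 TPM in KO against 139, 139.6 and 146 TPM in WT. It rose 1.44-fold (log2 fold change 0.53 ± 0.03 SE, limma adjusted p = 9.11e-05). Syt4, encoding a vesicle protein that restrains BDNF release, rose to 117.5% of WT (adjusted p = 0.0023). Hap1, whose product links huntingtin to the transport of BDNF vesicles, fell to 84.8% of WT (adjusted p = 0.00453).

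Of 35 adaptor and effector genes that act below Trk and p75, 3 rose, 1 fell and 31 did not pass. The 11.4% called was close to the 10.9% of all tested genes, with a median log2 fold change of 0.02. Lingo1, encoding a partner of p75 in the Nogo receptor complex, fell to 86.7% of WT (limma adjusted p = 0.00367). The other calls were Sh2b2, a Trk adaptor, at 124.8% of WT (adjusted p = 0.025), Kidins220, a Trk and p75 scaffold, at 106.5% (0.0466), and Bex1, a p75 effector, at 109.1% (0.0471). Each of those rises was lost without any of 5 single libraries. Among these fits Sh2b2 kept its call only without KO replicate 1 (adjusted p up to 0.0863), Kidins220 only without WT replicate 3 (up to 0.137) and Bex1 only without KO replicate 2 (up to 0.136).

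Of 22 transcription factor genes described at Bdnf promoters, 1 rose, 2 fell and 19 did not pass (13.6% called, beside 10.9% of all tested genes), with a median log2 fold change of -0.07. Neurod2, a factor of excitatory neuron differentiation, fell to 73.0% of WT (limma adjusted p = 0.00131). Mef2c, an activity-dependent factor, fell to 89.5% (adjusted p = 0.0117, and 0.0513 without KO replicate 3). Tcf4, an E-box binding factor, rose to 113.0% (adjusted p = 0.00491).

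Of 24 genes known to be induced by BDNF or by neuronal activity, 7 fell, 1 rose and 16 did not pass. The 7 are 29.2% of the list, where 6.74% of all tested genes were called lower, and the 1 is 4.17%, where 4.15% were called higher. As the list was chosen with earlier results of these data known, nothing is read from these shares. The median log2 fold change was -0.12, beside -0.02 over all tested genes. Arc, which encodes a synaptic protein induced within minutes of activity, had 4.42, 4.42 and 3.81 TPM in KO against 7.47, 6.86 and 6.54 TPM in WT (60.6% of WT, limma adjusted p = 0.00507). The neuropeptide gene Npy fell to 66.4% of WT (adjusted p = 0.000833), and the pentraxin genes Nptx1 and Nptx2, whose products cluster AMPA receptors, fell to 71.6% (0.000582) and 71.9% (0.0106). Rgs2, a regulator of G protein signalling, fell to 80.0% (adjusted p = 0.00691) and Inhba, a subunit of activin, to 74.1% (adjusted p = 0.0203). The gene that rose was Dusp4, a MAP kinase phosphatase, at 128.9% of WT (adjusted p = 0.0311), named after its value was seen. Leaving out WT replicate 1 ended the call of Nptx2 (adjusted p = 0.053). Inhba lost its call without KO replicate 2 or 3 or WT replicate 1 or 3 (up to 0.0772), and Dusp4 without KO replicate 2 or any WT library (up to 0.0935). Without WT replicate 1, 4 of the 24 were called lower in KO, and without KO replicate 1, 10 were. With all libraries, 18 of the 24 had a log2 fold change below 0, called or not.

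KO replicate 1 stood apart from the other KO libraries in these genes. It was the highest of the 3 KO libraries in 20 of the 24 (83.3%), where 37.4% of all tested genes had their highest KO value there. Its median over the 24 genes was 0.23 (log2) above the mean of the other two KO libraries, beside 0.01 over all tested genes. Bdnf itself, as given above, was highest in the same library, while Nrn1, also highest there among KO libraries, remained far below WT. Without KO replicate 1 the log2 fold change of Bdnf was -0.22, against -0.12 with it, and that of Nrn1 was -1.50. This arrangement was seen in the values and was not tested.

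**Figure D4:**
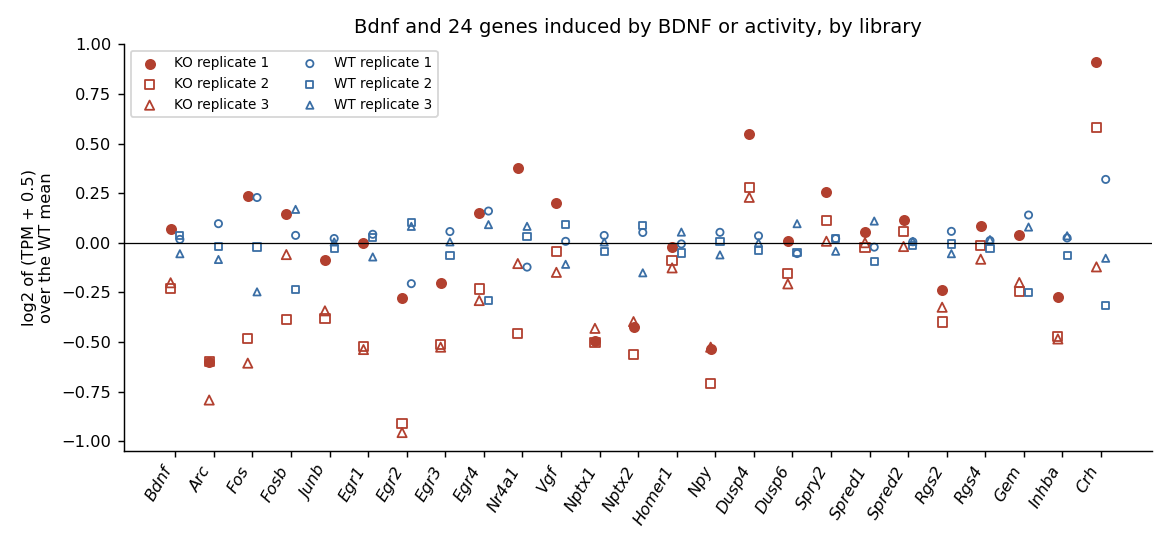
Log2 of TPM plus 0.5 relative to the WT mean (y axis) for Bdnf and 24 genes induced by BDNF or activity (x axis), with KO libraries in red and to the left of WT libraries in blue; filled red circles are KO replicate 1. KO replicate 1 is the highest KO library in 20 of the 24 genes and in Bdnf.

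Genes of other neurotrophic factors and their receptors gave 7 rises and no fall among 24 tested, with 17 that did not pass. The share that rose was 29.2%, where 4.15% of all tested genes were called higher in KO and 6.74% lower. The median log2 fold change was 0.04, beside -0.02 over all tested genes. This list too was chosen with earlier results of these data known, so nothing is read from the share. Leaving out 1 library gave 3 to 5 rises, the fewest without KO replicate 1, and the fit without the variance trend gave 3. Ptprz1, a receptor phosphatase, and Ptn, which encodes its ligand pleiotrophin, rose to 120.3% (limma adjusted p = 0.00026) and 115.4% (0.00118) of WT. Mdk, the gene of the related ligand midkine, rose to 128.0% (adjusted p = 0.0306, and up to 0.0999 leaving out 1 library). Hgf, encoding hepatocyte growth factor, had 10.6, 10.8 and 10.9 TPM in KO against 7.98, 7.96 and 7.44 TPM in WT (138.6% of WT, adjusted p = 0.00441), and its receptor gene Met rose to 112.1% (0.0187). Cntfr, a receptor subunit for ciliary neurotrophic factor, rose to 113.6% (adjusted p = 0.0478). Mdk lost its call without any single KO library or WT replicate 1, Met without KO replicate 1 or 2 or WT replicate 1 or 3 (adjusted p up to 0.0666), and Cntfr without KO replicate 1 or 3 or WT replicate 2 or 3 (up to 0.142).

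Summed levels of the markers of some cell types also differed between the groups, which says nothing of cell numbers in bulk RNA. Markers that rose or fell, here and below, are calls, beside 4.15% of all tested genes called higher in KO and 6.74% lower. The markers too were chosen with earlier results of these data known, so nothing is read from these counts. Pan-neuronal markers summed to 6432 to 6556 TPM in KO and 6158 to 6233 TPM in WT (2 of 8 rose, 1 fell), with Stmn2 the highest. Without Stmn2 they summed to 4351 to 4401 TPM in KO and 4130 to 4198 TPM in WT. Much of that was Tubb3, which rose to 111.9% of WT, while Rbfox3 fell to 87.0%. Of the 8 markers, 5 had a log2 fold change above 0 and 3 below. Excitatory neuron markers summed to 1082 to 1137 TPM in KO and 1454 to 1490.4 TPM in WT (2 of 10 rose, 5 fell), led by Camk2a, and GABAergic neuron markers to 899.6 to 972 TPM in KO and 1199 to 1235 TPM in WT (1 of 10 rose, 7 fell), led by Sst. These sums thus lay lower in KO for both neuron types while the pan-neuronal sum, most of it Stmn2 and Tubb3, was slightly higher. Much of the excitatory sum was Slc17a7 and Camk2a, which fell to 56.0% and 75.1% of WT. The markers that rose were Fezf2 (128.0%), Cux2 (119.2%) and the GABAergic Dlx1 (125.3%). Without Camk2a the excitatory sum was 715 to 759 TPM in KO and 960 to 986 TPM in WT. Without Sst the GABAergic sum was 491 to 537 TPM in KO and 626 to 646 TPM in WT. Astrocyte markers, led by Aldoc, summed to 2445 to 2594 TPM in KO and 2229 to 2267 TPM in WT (2 of 9 rose, 1 fell). Without Aldoc, a choice made after seeing the data, they summed to 1497 to 1613 TPM in KO and 1541 to 1557 TPM in WT, overlapping, and 5 of the 9 had a log2 fold change below 0. Progenitor markers, led by Vim, summed to 536 to 569 TPM in KO and 645 to 727 TPM in WT (2 of 7 tested fell). Without Vim they overlapped, at 226 to 245 TPM in KO and 234 to 258 TPM in WT.

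Oligodendrocyte lineage markers, led by Olig1, summed to 653 to 679.9 TPM in KO and 650.4 to 688 TPM in WT, overlapping (2 of 7 fell). Cajal-Retzius markers, almost wholly Reln, summed to 120.4 to 125 TPM in KO and 106 to 107 TPM in WT (1 of 2 tested rose). Endothelial and pericyte markers, led by Kdr, summed to 16.9 to 18.0 TPM in KO and 18.6 to 19.9 TPM in WT (1 of 5 tested fell, Kdr itself). Without Kdr the order was the opposite, at 10.6 to 12.9 TPM in KO and 9.12 to 10.3 TPM in WT. Microglial markers, led by Aif1, were near 0, at 2.10 to 4.29 TPM in KO and 1.77 to 2.12 TPM in WT. Their groups overlapped, with none called of 1 tested. Of the 6 meningeal markers, led by Dcn, 3 rose (50%, beside 4.15% of all tested genes), and the highest cholinergic marker was Slc5a7. No marker was at 0 in all 6 libraries. The part of these differences in the values of the 8 genes was not tested.

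**Figure D5:**
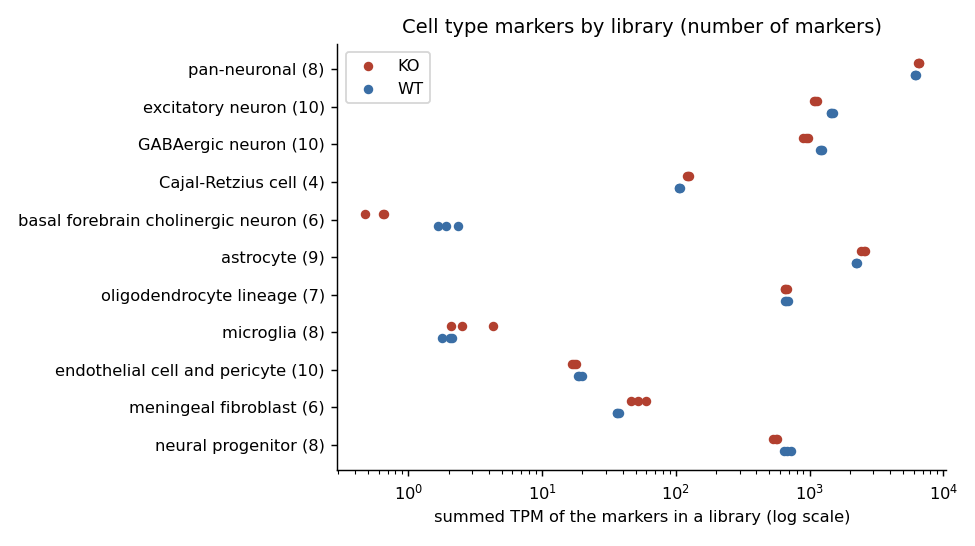
Summed TPM of the markers of each cell type (x axis, log scale; number of markers in brackets) in each library, KO in red above WT in blue. Excitatory and GABAergic sums are lower in every KO library than in any WT library. The pan-neuronal sum, most of it Stmn2 and Tubb3, is higher. The astrocyte sum is higher with Aldoc and overlaps without it.

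The genes whose values ran most closely with each of the 8 over the 6 libraries are given as a description, by Pearson correlation of log2 of TPM plus 0.5 among 12703 named genes averaging 1 TPM or more. With 6 libraries that fall into 2 groups, such values mainly follow the group difference where there is one. With so many genes compared over 6 libraries, some high correlations arise by chance. This holds also for Bdnf and Ntf3, whose groups overlap. For Nrn1 the closest were Eif2s3y (r = 0.999), Chn1 (0.998) and Zfhx4 (0.998), all lower in KO, of which Eif2s3y is Y-linked. For Bdnf they were Amot (0.986), Ccdc129 (0.982) and Folr1 (0.982), and for Ntf3 they were Sntg2 (0.988), Ppp1r37 (0.984) and Kcnk9 (0.975). Ntrk2 ran with Kcnv1 (0.997), Rab26os (0.996) and Frem1 (0.996), and Ntrk3 with Vsnl1 (0.998), C1ql3 (0.997) and Slc24a2 (0.996). Ngfr ran with Tagln (0.993), Fam193a (0.990) and Papss2 (0.990). Sort1 was closest to Sprn (0.996), Slc32a1 (0.996) and Itgb8 (0.996), and Sorcs2 to Fibcd1 (0.995), ChkbCpt1b (0.995, an entry named for a pair of neighbouring genes) and Rbbp7 (0.994).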

How the data were processed

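The authors deposited 1 table of TPM values per gene and library. Although it is named for FPKM, the values of every library add up to 1000000. The tools named per the submitters' processing notes are edgeR, featureCounts, Picard 1.127, TopHat, FastQC 0.11.2 and bcl2fastq 2.17, with build mm10 and no role or order. For annotation, strand setting and scaling, the choice is not given in the sources used here. No other value column was present (0).

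Whole counts were recovered from the TPM values for 19369 of 19369 non-zero rows (100.0%), within 0.001 counts plus 2e-08 of the value. They are lower bounds, because a factor shared by all counts of a gene is lost. For a gene of 1 kb, 1 count was worth 0.1265 to 0.1513 TPM. Library pairs differed by more than counting noise, so none was treated as a copy.

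KO was compared with WT by limma 3.58.1 (R 4.3.3) on log2 of TPM plus 0.5 with a variance trend, over the 14983 genes averaging 0.5 TPM or more, with Benjamini-Hochberg adjustment at 0.05. The design had expected FPKM or TPM and planned this log-scale test for either. Fold changes on this scale understate those of low genes, and text percentages are ratios of mean TPM. The fit and the count recovery were tested on simulated data. Counting intervals are exact 95% Poisson intervals.

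The members and gene lists were chosen with earlier results of these data known. Named genes are the 8 members, Kdm6b, every gene of the first pathway list, in the other pathway lists up to 6 genes past the threshold with the smallest p, the 3 most correlated genes per member, and the highest marker of each cell type. A few genes picked by it are left out of the text. Alternatives were other pseudocounts, filters, variance models and scalings, limma voom on the recovered counts, a replicate block, leaving out X and Y genes, and leaving out each library. Marker sums without the highest gene of a list were added after seeing the data. Positions come from GENCODE M21 (GRCm38, the build of mm10), and promoter sequences from RefSeq on GRCm38.p6, in which 4 of the 8 members were found.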

Additional observations from a re-analysis of the deposited data

How the results depend on the processing

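Over 17 alternatives no called result changed its direction. Against 622 genes higher and 1010 lower in KO, there were 406 and 658 without the variance trend, 1127 and 1382 when voom was run on those recovered counts, and 345 to 440 higher and 493 to 678 lower leaving out 1 library, with the lowest counts without WT replicate 1. Without 1 library the counts moved by over 1.5 times in all cases but WT replicate 3. With the replicate number as a block, 360 were higher and 585 lower. Same-numbered libraries did not deviate together (correlations 0.008, -0.051 and 0.011), so the numbers were not taken to pair the samples. Over the 6 pathway lists, 15 genes were called higher, but 9 without a filter on low values, 8 without the variance trend and 8 to 10 leaving out 1 library. Of the 27 called pathway genes, 14 kept the call in all 17 alternatives and 13 lost it on leaving out 1 library. Sorcs1, Kidins220, Bex1, Dusp4, Mdk, Cntfr and Lifr lost theirs both without a filter and without the variance trend, and Mef2c, Met and Egr3 without the trend. Sorcs1 also lost its call after quantile normalization, Bex1 with voom and Lifr at a pseudocount of 1. With the replicate block, Sorcs1, Sh2b2, Kidins220, Bex1, Cntfr and Lifr missed the threshold (adjusted p 0.0594, 0.069, 0.125, 0.066, 0.0784 and 0.113). The cause of these losses was not tested. Depth limits Ngfr most, whose counting intervals overlap between the groups. Those of Bdnf, Ntf3, Ntrk2, Ntrk3 and Sort1 also overlap between at least some KO and WT libraries. In Nrn1 and Sorcs2 they do not.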
